A study of Mus musculus with 22 samples.

Results

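The genes described here encode the proteasome, the protease complex that degrades ubiquitin-tagged proteins, in mouse blastocysts at embryonic day 3.5. Members were all genes whose symbol in the array's annotation begins with Psma, Psmb, Psmc, Psmd, Psme, Psmf or Psmg and that had at least 1 probe detected (detection p under 0.05, the array's own p of a probe against its negative controls) on at least 3 of 22 arrays. Of 45 annotated symbols, 41 met this rule, among 9345 genes tested in all. The other 4, Psma1, Psmb8, Psmd5 and Psme2, were detected on 0 arrays, with lowest detection p-values of 0.353, 0.084, 0.0977 and 0.104. Psmd3, Psma8, Psmb11, Psmf1 and Psmg4 were not analysed here.

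Blastocyst RNA was measured on Illumina MouseRef-8 bead arrays, 1 sample per array. Embryos had the outbred CD1 or the inbred B6 strain background and had grown in 1 of 3 embryo culture media, KSOM, HTF or ISM1, or in vivo. The CD1 HTF, CD1 ISM1, CD1 in vivo, B6 KSOM, B6 HTF, B6 ISM1 and B6 in vivo groups held 3 arrays each, labelled as biological replicates, and the CD1 KSOM group held 1. How many embryos made up a sample and how many cells they held are not given in the sources used here, so fewer cells of a type and less RNA per cell cannot be told apart. All 8 blastocyst markers (Cdx2, Krt8, Krt18, Pou5f1, Nanog, Gata6, Dppa5a and Fgfr2) were detected on every array of each group except CD1 ISM1, where 7 were. None of 5 cumulus cell markers was detected on any array. Of 8 blood and immune markers, Ptprc was detected on 0 arrays, while Laptm5 was detected on every array of each group except CD1 in vivo and Cd3e on every array of CD1 KSOM, CD1 HTF, B6 KSOM and B6 HTF. Cd74 was detected on the CD1 KSOM array, on no CD1 in vivo array and on some but not all arrays of each other group. Partial detection was also found for Coro1a in several groups and for Hba-a1 in CD1 ISM1 and B6 in vivo. Cd52 was detected on some B6 in vivo arrays and Lyz2 on some CD1 in vivo arrays. Of 6 reproductive tract markers, Foxj1 was detected on every array and Pax8 and Krt5 on 0 arrays. Muc1 was detected on every array of CD1 KSOM, CD1 HTF, CD1 ISM1, B6 KSOM and B6 HTF. In the other groups Muc1 was detected on some arrays. Ovgp1 was detected on some arrays of CD1 in vivo, B6 KSOM, B6 ISM1 and B6 in vivo, and Ltf on some B6 in vivo arrays. The summed log2 level of the 6 markers reached 35.1 in CD1 in vivo and at most 32.5 in any other group. The part of such RNA in the results below was not tested. The median raw intensity of an array ranged from 90.6 to 154, and was lowest on average in CD1 in vivo (104 ± 11.3, SD, n = 3).

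The proteasome consists of a barrel, the 20S core, whose outer rings are built of alpha subunits and whose inner rings are built of beta subunits, and of a 19S cap that binds ubiquitin chains, removes them and unfolds the substrate. Of the beta subunits, Psmb5, Psmb6 and Psmb7 carry the chymotrypsin-like, caspase-like and trypsin-like proteolytic sites, and interferon-gamma induces the replacements Psmb8, Psmb9 and Psmb10, which form the immunoproteasome. Oocytes and early embryos use the proteasome to clear maternal proteins. Levels below are background-corrected, quantile-normalized log2 intensities of each gene's brightest kept probe, and differences are on the same log2 scale, so that 1 is a doubling. Levels of different probes are not comparable, and comparisons between genes use differences.

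By role, the members were 6 of 7 annotated alpha subunits, 7 of 7 constitutive beta subunits, 2 of 3 tissue-restricted beta subunits (Psmb9 and Psmb10), 6 of 6 ATPases of the cap (Psmc1 to Psmc6) and 10 of 10 of its other subunits. A further 3 of 4 were activators that can bind the core in place of the 19S cap (Psme1, Psme3 and Psme4) and 5 of 6 were assembly chaperones (Psmg1, Psmg2, Psmg3, Psmd9 and Psmd10). Psmc3ip, which encodes a partner protein of the meiotic recombinases, and Psme3ip1, a binding partner of Psme3, matched by symbol only and are no proteasome subunits. Of the 41 members, 38 (92.7%) were detected on all 22 arrays, against 4656 of 9345 tested genes (49.8%). The exceptions were Psmd2, which was detected on 20 arrays, Psmd9 on 21, and Psma6, which met the rule at its limit of 3 arrays. Psma6 had log2 levels of 4.50 to 5.66, near background, and is counted among the members with no fold given for it.

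Promoters of 4 members are printed. Psmb9 was the only member called between the strains, close to the threshold, and Psmb6 is its constitutive counterpart. Psmb5 was the constitutive beta subunit with the largest strain difference. Psmd10 had the strain difference next to that of Psmb9 in size. The differences of Psmb5 and Psmd10 were not called. Each printed promoter runs from 250 bases before to 50 bases after the RefSeq start of the gene in build GRCm38.p6. Psmb9 is at chr17:34187281-34187580 on the minus strand, Psmb6 at chr11:70525107-70525406 on the plus strand, Psmb5 at chr14:54617946-54618245 on the minus strand and Psmd10 at chrX:140956662-140956961 on the minus strand. Capitals mark matches on either strand to CCAAT, the CCAAT box, or to TGACNNNGC, the core of the antioxidant response element through which the transcription factor Nfe2l1 acts on proteasome genes.
Psmb9: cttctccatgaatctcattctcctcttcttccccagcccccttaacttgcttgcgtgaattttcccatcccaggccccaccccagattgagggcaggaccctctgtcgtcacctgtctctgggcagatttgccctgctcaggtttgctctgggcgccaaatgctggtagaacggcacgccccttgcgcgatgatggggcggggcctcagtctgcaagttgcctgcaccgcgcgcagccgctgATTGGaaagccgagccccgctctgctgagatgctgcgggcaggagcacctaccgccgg
Psmb6: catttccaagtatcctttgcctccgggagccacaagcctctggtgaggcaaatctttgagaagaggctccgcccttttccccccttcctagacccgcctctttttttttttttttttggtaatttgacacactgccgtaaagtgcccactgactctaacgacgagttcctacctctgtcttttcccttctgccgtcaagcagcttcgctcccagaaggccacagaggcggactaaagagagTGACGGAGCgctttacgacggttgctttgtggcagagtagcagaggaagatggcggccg
Psmb5: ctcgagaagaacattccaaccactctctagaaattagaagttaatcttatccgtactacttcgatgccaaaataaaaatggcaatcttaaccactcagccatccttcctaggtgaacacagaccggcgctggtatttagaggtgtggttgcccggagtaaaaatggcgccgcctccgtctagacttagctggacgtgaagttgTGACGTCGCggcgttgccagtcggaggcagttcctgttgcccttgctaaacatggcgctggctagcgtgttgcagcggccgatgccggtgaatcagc
Psmd10: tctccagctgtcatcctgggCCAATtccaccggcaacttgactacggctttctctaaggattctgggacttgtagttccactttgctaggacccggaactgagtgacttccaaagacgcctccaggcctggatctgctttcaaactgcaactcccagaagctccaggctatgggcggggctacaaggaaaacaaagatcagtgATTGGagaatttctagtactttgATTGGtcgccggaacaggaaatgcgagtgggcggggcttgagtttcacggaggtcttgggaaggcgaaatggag
TGACNNNGC stood at -47 in Psmb5 and at -9 in Psmb6, counted from the start to the first base of the match. CCAAT stood at -8 in Psmb9 and at -230, -47 and -24 in Psmd10. Promoter windows were given for 35 of the 41 members. TGACNNNGC was in 6 of them (17.1%: Psmb5, Psmb6, Psmc6, Psmd12, Psmd9 and Psme4), against 14% of 27025 genes with such a window, and CCAAT was in 14 (40%), against 41.1%. A pair of interferon-related motifs was added after the data were seen. The core of the interferon-stimulated response element, searched as GAAA, NN and GAAA in a row, was in 4 of the 35 members (11.4%: Psmb3, Psmd4, Psmd9 and Psme1), against 3.99% of all genes, and TTCNNNGAA, the core of the gamma-activated site, in 2 (5.71%: Psmd2 and Psmg1), against 9.55%. A match is a run of letters and was not tested as a binding site.

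The first comparison asked how embryos of the CD1 strain differed from embryos of the B6 strain, averaged over HTF, ISM1 and in vivo growth (9 arrays each). Psmb9, the immunoproteasome subunit that takes the place of Psmb6, was higher in CD1. Its log2 levels were 8.25, 8.27 and 8.23 in CD1 HTF against 7.04, 6.67 and 6.71 in B6 HTF, and all CD1 arrays lay above all B6 arrays. In ISM1 they were 8.46, 7.76 and 7.77 in CD1 against 6.60, 7.46 and 6.97 in B6, again with no overlap. In vivo they were 7.37, 8.47 and 8.65 in CD1 against 7.58, 6.92 and 7.21 in B6, where 1 CD1 array lay below the highest B6 array. The averaged difference was 1.12 (2.17-fold, SE 0.21, adjusted p = 0.0451 by limma over all genes), and it was the only call among the 41 members, where limma called 0.235% of all genes tested. The difference was 1.44 (SE 0.36) in HTF, 0.99 in ISM1 and 0.93 in vivo, none of them called singly (lowest adjusted p = 0.456 by limma). The share of all genes whose strains did not overlap within a condition was not counted. In comparisons of conditions within a strain, groups without overlap were found for 5.2% to 15% of all genes.

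The call of Psmb9 lay close to the threshold. It held when replicate 2 of CD1 ISM1 was left out (adjusted p = 0.0450 by limma) and when either replicate 1 (0.00815) or replicate 3 (0.0480) of CD1 in vivo was. It was lost without any other of the 18 arrays, with differences between 1.04 and 1.25 and adjusted p-values up to 0.116. It was also lost with the replicate block, with the authors' log2 values, with no filter on detection, with the mean of kept probes, with array brightness as a covariate (adjusted p = 0.15 by limma, the highest of all alternatives) and with median scaling, where the difference was 0.64. Psmb9 was read by 1 probe, so a difference in level and a base difference between the strains under the probe cannot be told apart. Outside this average, the CD1 KSOM array had a Psmb9 level of 8.60, above the B6 KSOM arrays at 7.37, 7.81 and 8.46. The summed log2 level of the 8 blood and immune markers ran from 43.1 to 48.7 in CD1 ISM1, 45.8 to 46.5 in CD1 HTF and 39.2 to 45.8 in CD1 in vivo, against 42.7 to 46.8 in B6 ISM1, 45.3 to 45.9 in B6 HTF and 43.6 to 49 in B6 in vivo. Their part in the result was not tested.

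The other immunoproteasome members stood differently. Psmb10, which takes the place of Psmb7, had levels of 7.76, 7.64 and 8.15 in CD1 HTF against 7.63, 7.02 and 6.93 in B6 HTF. All CD1 HTF arrays were higher, but the closest arrays nearly met (7.64 against 7.63). In ISM1 its levels were 6.86, 8.84 and 8.38 in CD1 against 9.17, 8.92 and 7.04 in B6, with overlap, and in vivo 9.14, 8.56 and 7.65 in CD1 against 7.61, 6.87 and 9.48 in B6. Its strain difference of 0.26 was not called, and its other kept probe gave 0.30. Psme1, a subunit of the activator that works with the immunoproteasome, differed by 0.18. Psmb8, the third replacement subunit, and Psme2, the partner of Psme1, were not detected.

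Psmd10, known as gankyrin and a chaperone in assembly of the 19S cap, was the only member whose CD1 arrays all lay above the B6 arrays in each of HTF, ISM1 and in vivo growth, which held in either direction for 33 genes (0.353% of all genes tested). Its levels were 11.96, 11.52 and 11.42 in CD1 HTF against 10.79, 10.996 and 11.31 in B6 HTF. They were 12.01, 11.84 and 11.38 in CD1 ISM1 against 10.92, 11.10 and 11.38 in B6 ISM1, where the closest arrays nearly met. In vivo they were 11.59, 12.15 and 11.49 in CD1 against 11.09, 11.17 and 10.63 in B6. The averaged difference was 0.66 (1.58-fold, SE 0.16) and was not called (adjusted p = 0.111 by limma). Its other 2 kept probes gave -0.16 and 0.16.

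The next largest strain differences were negative and not called. Psmb5 differed by -0.53 (SE 0.27), the alpha subunit Psma7 by -0.51 (SE 0.22) and the ATPase Psmc3 by -0.46 (SE 0.17), with adjusted p-values of 0.521, 0.422 and 0.340 by limma. The other probe of Psma7 gave -0.72. All 3 differences were largest in vivo. In HTF, ISM1 and in vivo they were -0.39, -0.45 and -0.76 for Psmb5, -0.32, -0.24 and -0.96 for Psma7, and -0.04, -0.41 and -0.92 for Psmc3. Psma7 had its lowest level on CD1 in vivo replicate 2, at 10.99. Psmb5 was also lowest on that array, at 9.24, where the 2 other CD1 in vivo arrays had 11.18 and 11.14. Over all members 24 of 41 were higher in CD1, with a median difference of 0.03 against 0.01 over all genes tested. With median scaling in place of quantile normalization these medians were -0.25 and -0.28. An unadjusted p under 0.05 was found for 4 members (Psmb9, Psmd10, Psmc3 and Psma7), or 4 of 41 against 10.1% of all genes tested. The 95% interval of the difference lay wholly within 1 log2 unit either way for 36 of 41 members, against 70.6% of all genes tested, which are on the whole dimmer and more variable.

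**Figure D1:**
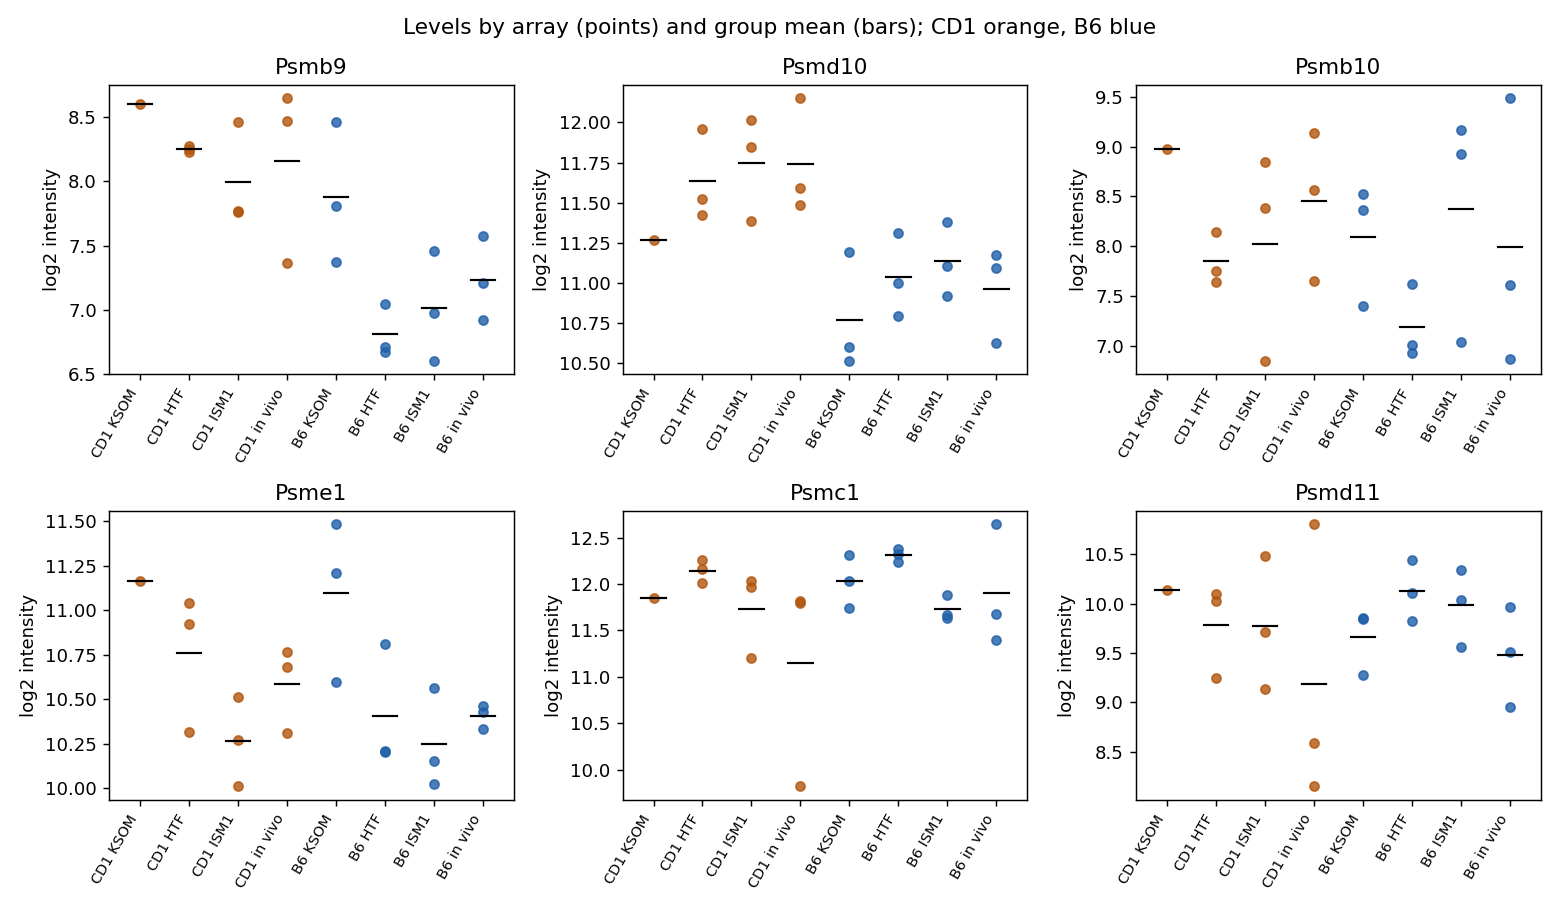
Log2 intensity (y axis) on each array (points) by group (x axis), CD1 groups in orange to the left of B6 groups in blue, with group means as bars, for 6 members. Each gene is shown on its brightest kept probe. The group means of Psmb9 and Psmd10 lie higher in CD1 under each condition, while single arrays of the strains overlap across groups. The 3 B6 KSOM arrays of Psme1 lie above the B6 in vivo arrays, and Psmc1 and Psmd11 have a low CD1 in vivo array.

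Embryos grown in a medium were next compared with embryos grown in vivo. In HTF, averaged over both strains, limma called 0 members and 19 genes in all (0.203% of all genes tested). Of the members, 25 of 41 were higher in HTF, with a median difference of 0.03 against 0.01 over all genes, and 1 had an unadjusted p under 0.05, against 8.25% of all genes. No member had HTF arrays all above or all below the in vivo arrays in both strains, as 1.84% of all genes did. The interval lay within 1 log2 unit for 34 members, against 58% of all genes.

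That member was Psmc1, an ATPase of the cap. Psmc1 had levels of 12.26, 12.01 and 12.17 in CD1 HTF against 11.82, 9.82 and 11.80 in CD1 in vivo. In B6 it had 12.24, 12.38 and 12.33 in HTF against 11.67, 11.40 and 12.65 in vivo. All CD1 HTF arrays were above the CD1 in vivo arrays, 1 of which was far below the others, and the B6 groups overlapped. The averaged difference was 0.70 (SE 0.31, adjusted p = 0.547 by limma), and without CD1 in vivo replicate 2 it was 0.37.

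Psmb10 was next, with a difference of -0.70 (SE 0.47, adjusted p = 0.768 by limma). Its levels were 7.76, 7.64 and 8.15 in CD1 HTF against 9.14, 8.56 and 7.65 in CD1 in vivo, and 7.63, 7.02 and 6.93 in B6 HTF against 7.61, 6.87 and 9.48 in B6 in vivo. The groups overlapped in both strains, the difference was -0.33 without B6 in vivo replicate 3, and the other probe gave -0.76. Psmd11, a scaffold subunit of the cap whose phosphorylation is known to raise proteasome activity, differed by 0.63 (SE 0.38) and by 0.30 on its other probe. On CD1 in vivo arrays Psmd11 ranged from 8.15 to 10.81, wider than any difference between its groups. Psmc3 and the assembly chaperone Psmg2 differed by 0.31 and 0.30, with adjusted p-values of 0.765 and 0.747 by limma.

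Within their subcomplexes a few members had a difference of opposite sign in HTF. Among the alpha subunits, Psma4 (0.15) and Psma5 (0.06) were positive and the other 4 negative. Among the constitutive beta subunits, Psmb1 (0.13), Psmb4 (0.02) and Psmb6 (0.01) were positive, while Psmb5 was at -0.16 and Psmb7 at -0.26, whose other 2 kept probes gave 0.40 and 0.24. Psmc4 was the only negative ATPase (-0.08), Psmd2, a scaffold of the cap's base, was the only negative one of 10 other cap subunits (-0.27), and Psmd10 (-0.02) and Psmg1 (-0.29) were negative among the assembly chaperones. Psmd4, a ubiquitin receptor of the cap, differed by 0.02, and Psmd14, its deubiquitinating enzyme, by 0.14. The activators Psme3 and Psme4 differed by 0.11 and 0.19. None of these differences was called.

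In ISM1, averaged over both strains, limma called 0 members (0% of all genes tested). Psmd11 had the largest difference, 0.55 (SE 0.38, adjusted p = 0.999 by limma). Psmb7 differed by -0.42, but its other 2 probes gave 0.23 and -0.05. Psmc3ip differed by 0.32, Psma7 by 0.30 and the cap subunit Psmd12 by 0.28. Leaving out 1 array at a time moved Psmd11 between 0.29 and 0.96, Psmb7 between -0.56 and -0.17, Psmc3ip between 0.10 and 0.65, Psma7 between 0.12 and 0.52 and Psmd12 between 0.05 and 0.45. An unadjusted p under 0.05 was found for 0 members, against 3.29% of all genes. Of the members, 21 of 41 were higher in ISM1, with a median of 0.01 against 0.01 over all genes, and the interval lay within 1 log2 unit for 33, against 62% of all genes. Set against HTF, ISM1 likewise gave 0 member calls (0.0963% of all genes tested), with 18 of 41 members higher and a median of -0.03. In that comparison 0 members had an unadjusted p under 0.05, against 5.41% of all genes, and for 0 members did the ISM1 and HTF arrays not overlap in both strains, against 1.9%. The interval lay within 1 log2 unit for 35 members, against 60.7%.

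KSOM could be tested in B6 alone, where limma called 0 members (0% of all genes tested) and 1 member had an unadjusted p under 0.05, against 5.92% of all genes. Psme1 had levels of 11.21, 10.60 and 11.48 in B6 KSOM against 10.43, 10.33 and 10.46 in B6 in vivo, all KSOM arrays being higher. Its difference was 0.69 (SE 0.29, adjusted p = 0.791 by limma), and its other probe gave 0.30. Psmb9 had 7.37, 7.81 and 8.46 in B6 KSOM against 7.58, 6.92 and 7.21 in vivo, with overlap and a difference of 0.64. Psmd9, a chaperone of cap assembly, had 7.26, 8.12 and 5.37 in B6 KSOM against 7.40, 7.64 and 7.58 in vivo. Its difference of -0.62 became 0.15 when B6 KSOM replicate 3 was left out, where Psmd9 was not detected. The other kept probe of Psmd9, detected on 4 arrays, gave 0.35. Psma5 was the other member whose groups did not overlap, with a difference of -0.16. Such groups were found for 8.19% of all genes tested. Of the members, 22 of 41 were higher in KSOM, with a median of 0.02, and the interval lay within 1 log2 unit for 24, against 30.7% of all genes.

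In B6, HTF could also be set against KSOM, a comparison without the in vivo arrays. Psmb9 had 7.04, 6.67 and 6.71 in HTF against 7.37, 7.81 and 8.46 in KSOM, all HTF arrays being lower. The difference was -1.07 (SE 0.36, adjusted p = 0.448 by limma), so it was not called. Psme1 differed by -0.69 (SE 0.29, adjusted p = 0.487 by limma) and Psmb10 by -0.91. These 2 members with an unadjusted p under 0.05, Psmb9 and Psme1, compare with 9.53% of all genes tested, and limma called 1 gene in all (0.0107%). All HTF arrays lay below all KSOM arrays for Psmb9, Psmb2 and Psmd2 and above them for Psmg2, against 15% of all genes in either direction. The interval lay within 1 log2 unit for 22 members, against 28.7%.

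The constitutive beta subunits were next counted as a subcomplex. Against KSOM, 7 of 7 beta subunits were lower in B6 HTF, with a median difference of -0.36 and a range of -0.56 to -0.09. They stayed lower in each fit that left out 1 array, with medians of -0.65 to -0.24. The count rests on the brightest probes: both other kept probes of Psmb7 were higher in HTF (0.13 and 0.38, against -0.54 on the probe used), while the other probe of Psmb2 gave -0.37. Against in vivo growth 7 of 7 were also lower in B6 HTF, with a median of -0.23, but without B6 in vivo replicate 3 only 2 were lower and the median was 0.01. In B6 ISM1 6 of 7 were lower than in vivo (median -0.22, and -0.03 without B6 in vivo replicate 3). In CD1 HTF 5 of 7 were higher than in vivo, with a median of 0.02. Without CD1 in vivo replicate 3 this was 7 of 7 (median 0.31), and without CD1 in vivo replicate 2 it was 3 of 7 (median -0.05). None of these members was called, and no test over the group was made.

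The proteolytic subunits show the arrays behind these counts. Psmb5 had 11.40, 10.77 and 10.62 in B6 HTF against 11.46, 10.97 and 11.87 in B6 KSOM and 11.21, 10.51 and 12.11 in B6 in vivo. Psmb6 had 13.22, 12.83 and 12.60 in B6 HTF against 13.64, 12.90 and 13.78 in B6 KSOM and 12.96, 12.67 and 13.71 in B6 in vivo. Psmb7 had 11.64, 10.47 and 10.16 in B6 HTF against 11.12, 10.998 and 11.77 in B6 KSOM and 10.78, 10.67 and 12.21 in B6 in vivo. For all 3 genes the HTF values overlapped both other groups, and B6 in vivo replicate 3 and B6 KSOM replicate 3 were the highest arrays. The same pair of arrays stood highest for the assembly chaperone Psmg3, at 10.93 and 11.09, against 7.69 to 9.56 on all others.

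Outside the beta ring, the 6 alpha subunits were all lower in B6 KSOM than in vivo, with differences of -0.24 to -0.04. When 1 array was left out, 4 to 6 of them were lower. The count includes Psma6, which was detected on 0 B6 KSOM arrays and 1 B6 in vivo array. The 10 non-ATPase subunits of the cap were higher in HTF in 9 cases when strains were averaged (median 0.14), and in 6 to 9 cases when 1 array was left out. This count too was made on the brightest probes. The other kept probe of Psmd6 gave -0.13, against 0.19 on the probe used. Those of Psmd7, Psmd11 and Psmd12 gave 0.81, 0.30 and 0.15. The 3 activators were all lower in ISM1 than in vivo in both B6 (median -0.13) and CD1 (median -0.18). This rests on the brightest probes: the other kept probe of Psme1 gave -0.42 in B6 but 0.09 in CD1, against -0.32 in CD1 on the probe used. In vivo arrays are shared by the media within a strain, so these comparisons are not independent.

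Within single strains limma called 0 members for either medium. In CD1 HTF 2 members, Psmc1 and Psmc3, had an unadjusted p under 0.05, against 7.06% of all genes (calls over all genes 0.0107%). Here 29 of 41 members were higher, with a median of 0.12 against 0.03 over all genes, and the interval lay within 1 log2 unit for 23, against 29.9%. In CD1 HTF all arrays of Psma4, Psmb1, Psmc1, Psmd13 and Psmg2 lay above the in vivo arrays and those of Psma3 below them, against 10.4% of all genes in either direction. In CD1 ISM1 0 members had an unadjusted p under 0.05 (5.04% of all genes) and 0 had groups without overlap (5.2%), while the interval lay within 1 log2 unit for 27 (31.1%).

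In B6 HTF 0 members had an unadjusted p under 0.05, against 3.39% of all genes, and 16 of 41 were higher than in vivo. The cap subunit Psmd8 (0.30) and Psme3ip1 (-0.30) were the 2 members whose groups did not overlap, against 10.8% of all genes. In B6 ISM1 0 members had an unadjusted p under 0.05, against 1.19%, and 16 of 41 were higher. Psmd4 (0.12) and Psmd9 (0.49) lay above all in vivo arrays there and Psmb2 (-0.31) and Psme3ip1 (-0.43) below them, against 8.28% of all genes. The other kept probe of Psmd9, detected on 4 arrays, gave -0.29. In each of these B6 comparisons the interval lay within 1 log2 unit for 26 members, against 32.9% and 34.5% of all genes for HTF and ISM1.

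**Figure D2:**
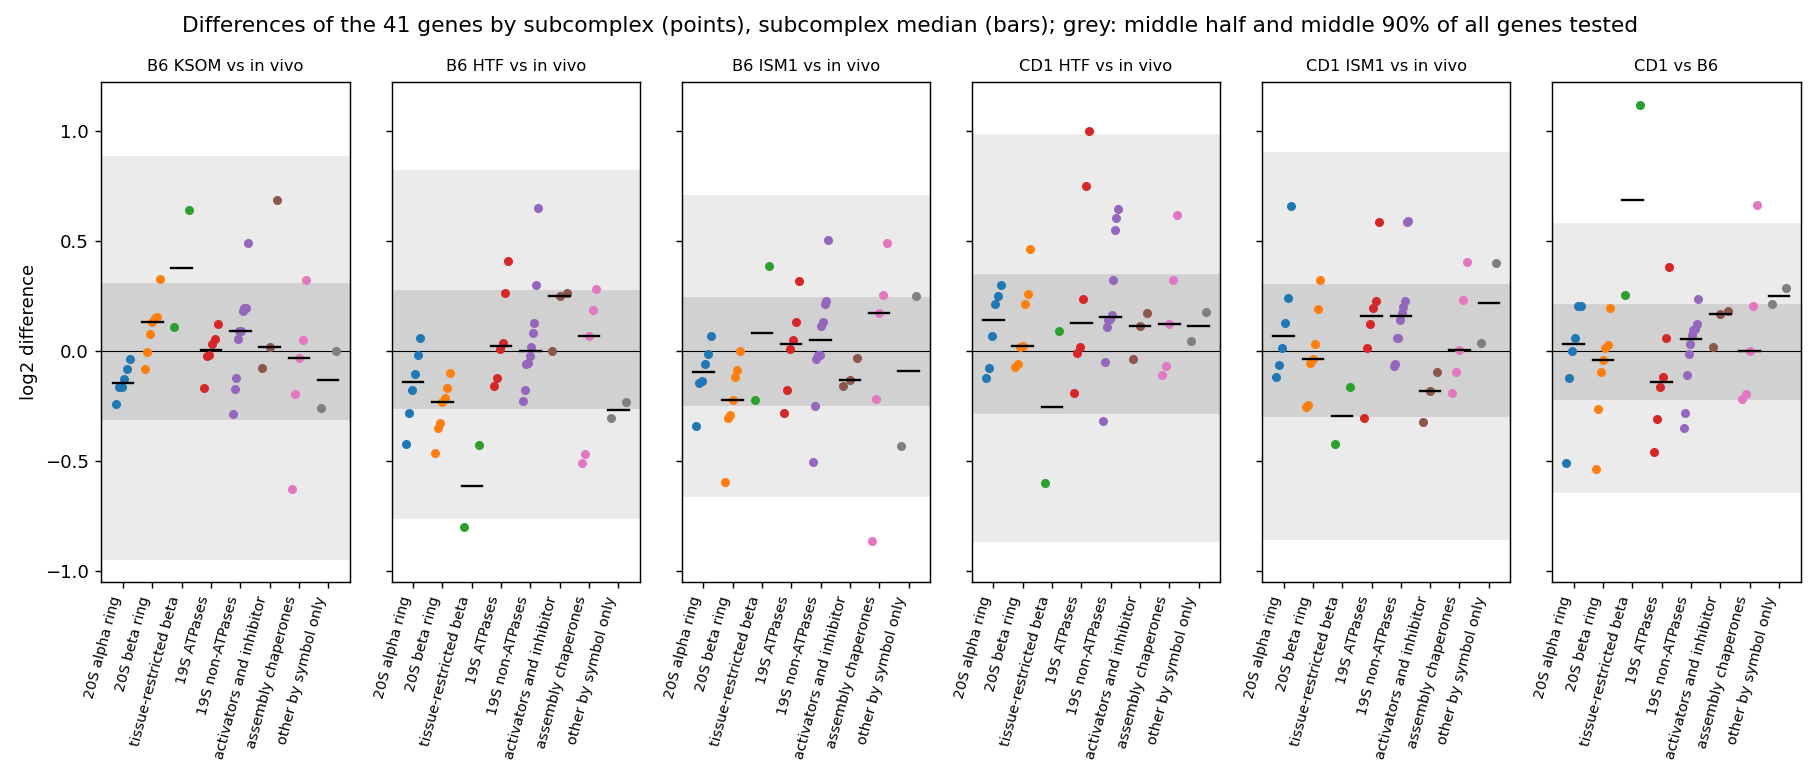
Log2 difference (y axis) of each of the 41 members (points) by subcomplex (x axis) in 6 comparisons (panels, first-named group minus the second), with the subcomplex median as a bar and the middle 50% and 90% of all 9345 genes as grey bands. Most members lie inside the bands, Psmb9 and Psmd10 lie above them in CD1 against B6, and the constitutive beta subunits, each on its brightest probe, lie below 0 in B6 HTF.

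Whether the strains differed in their response to a medium was tested as an interaction. Limma called 0 members for HTF and for ISM1 (0% of all genes tested). For HTF, 30 of 41 members had a more positive effect in CD1 than in B6, with a median of 0.20 against 0.03 over all genes, and 7 of 7 constitutive beta subunits did (median 0.38, with 5 of 7 and 0.18 without B6 in vivo replicate 3). Psmc3 had the lowest p, with effects of 0.75 in CD1 and -0.12 in B6 and a difference of 0.87 (SE 0.41, unadjusted p = 0.0480, adjusted p = 1 by limma). It was the only member with an unadjusted p under 0.05, against 1.99% of all genes. For ISM1 the count was 0 members, against 2.38%, with 27 of 41 members more positive in CD1 and a median of 0.08. The intervals are wide: 13 members for HTF and 14 for ISM1 had an interval within 1 log2 unit, against 8.45% and 8.33% of all genes.

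Other gene groups with housekeeping roles give a scale for the medians. In B6 HTF against in vivo growth the members had a median of -0.10, 61 cytosolic ribosomal protein genes had -0.19 and 38 subunits of respiratory complex I had -0.50, against 0.01 over all genes. In CD1 HTF the medians were 0.12, 0.03 and -0.16, against 0.03 over all genes. In CD1 against B6 they were 0.03, -0.03 and 0.24, against 0.01.

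**Figure D3:**
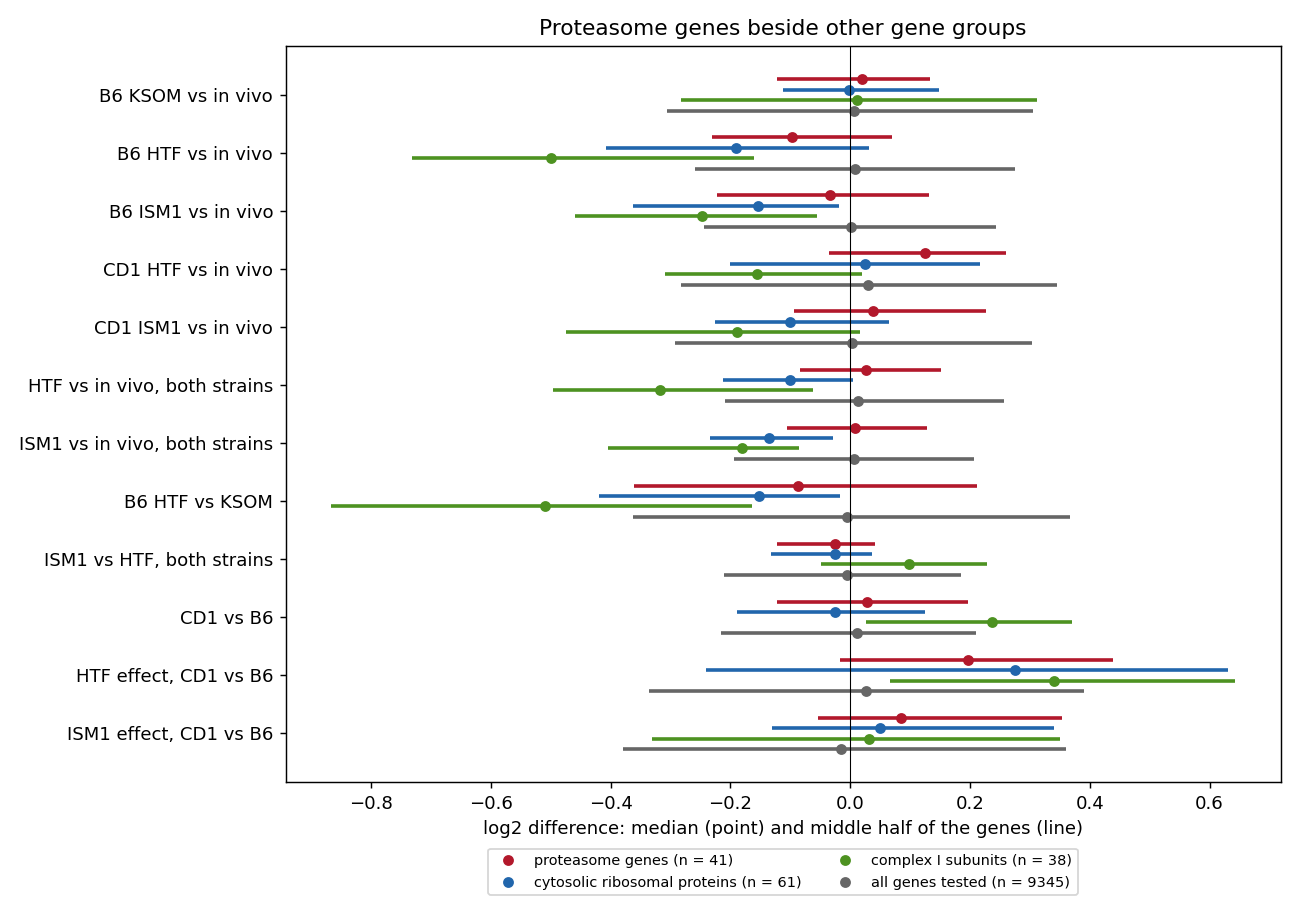
Median (point) and middle 50% (line) of the log2 differences (x axis) of the 41 members, 61 cytosolic ribosomal protein genes, 38 complex I subunits and all 9345 genes in each of 12 comparisons (y axis, first-named group minus the second). The members' medians lie between -0.10 and 0.20, and those of complex I reach -0.50 in B6 HTF against in vivo growth and -0.51 against KSOM.

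Beyond the subunits, 15 further genes of the pathway were tested, and none was called in any comparison. They were 6 associated or assembly factors (Sem1, Pomp, Usp14, Uchl5, Ecpas and Ube3c), 8 shuttle and unfolding factors (Vcp, Nploc4, Rad23b, Ubqln1, Ubqln4, Faf1, Ubxn1 and Zfand2a) and Nfe2l1, the transcription factor that induces proteasome genes when proteasome activity falls short. Nploc4, a cofactor of the unfolding ATPase Vcp, differed by 1.38 in CD1 HTF (SE 0.38, adjusted p = 0.351 by limma) and by 1.05 in CD1 ISM1 against the same in vivo arrays, while in B6 it differed by 0.00 and -0.28. Nfe2l1 differed by 0.73 in CD1 HTF and 0.72 in CD1 ISM1, and by -0.13 and 0.02 in B6. Pomp, the chaperone that matures the 20S core, differed by -0.07 in HTF over both strains. Vcp and Zfand2a differed by -0.36 and -0.53 in CD1 against B6, with adjusted p-values of 0.383 and 0.367 by limma. An unadjusted p under 0.05 was found for 2 of the 15 genes in CD1 HTF (7.06% of all genes), 2 in CD1 ISM1 (5.04%) and 2 in CD1 against B6 (10.1%).

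Replicates within a group varied less for the proteasome genes than for genes at large, with a median SD over members of 0.37 against 0.54 over all genes tested. The SD was also lower for ribosomal protein genes (0.40) and complex I subunits (0.45), and none of these values was matched for brightness. The alpha subunits varied least (median SD 0.21), with Psma3 at 0.13 and Psma5 at 0.14, and the ubiquitin receptor Psmd4 was also at 0.14. The most variable members were Psmb10 at 0.88, Psmd9 at 0.83, Psmg3 at 0.82 and Psme3, the nuclear activator, at 0.79. Psme3 had levels of 9.65, 9.88 and 10.46 in CD1 HTF, 10.13, 8.52 and 10.90 in CD1 ISM1 and 9.22, 10.13 and 10.75 in CD1 in vivo. In B6 it had 9.55, 10.27 and 9.11 in KSOM, 11.02, 9.87 and 9.02 in HTF, 10.31, 9.49 and 9.27 in ISM1 and 9.83, 8.99 and 10.34 in vivo, so that its groups overlapped throughout.

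The mean log2 level over the 41 members was 11.5 ± 0.11 in CD1 HTF, 11.4 ± 0.22 in CD1 ISM1 and 11.3 ± 0.18 in CD1 in vivo (SD, n = 3 each). In B6 it was 11.4 ± 0.03 in KSOM, 11.3 ± 0.15 in HTF, 11.3 ± 0.14 in ISM1 and 11.4 ± 0.25 in vivo. The ranges of these groups overlapped. Single arrays differed within a group. On B6 in vivo replicate 3, 30 of 41 members were higher than on replicate 2, against 48.2% of all genes. Between the same arrays ribosomal protein genes differed by a median of 0.55 and complex I subunits by 0.03. The pair was ordered by the members' own mean, so the count is no test of a shared shift. CD1 in vivo replicate 2 had the lowest mean, at 11.12. Among other members, it was the lowest array of all for Psma7, Psmc1, Psmc2, Psmd11, Psmd12, Psmb4, Psmb5 and Psmg3.

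**Figure D4:**
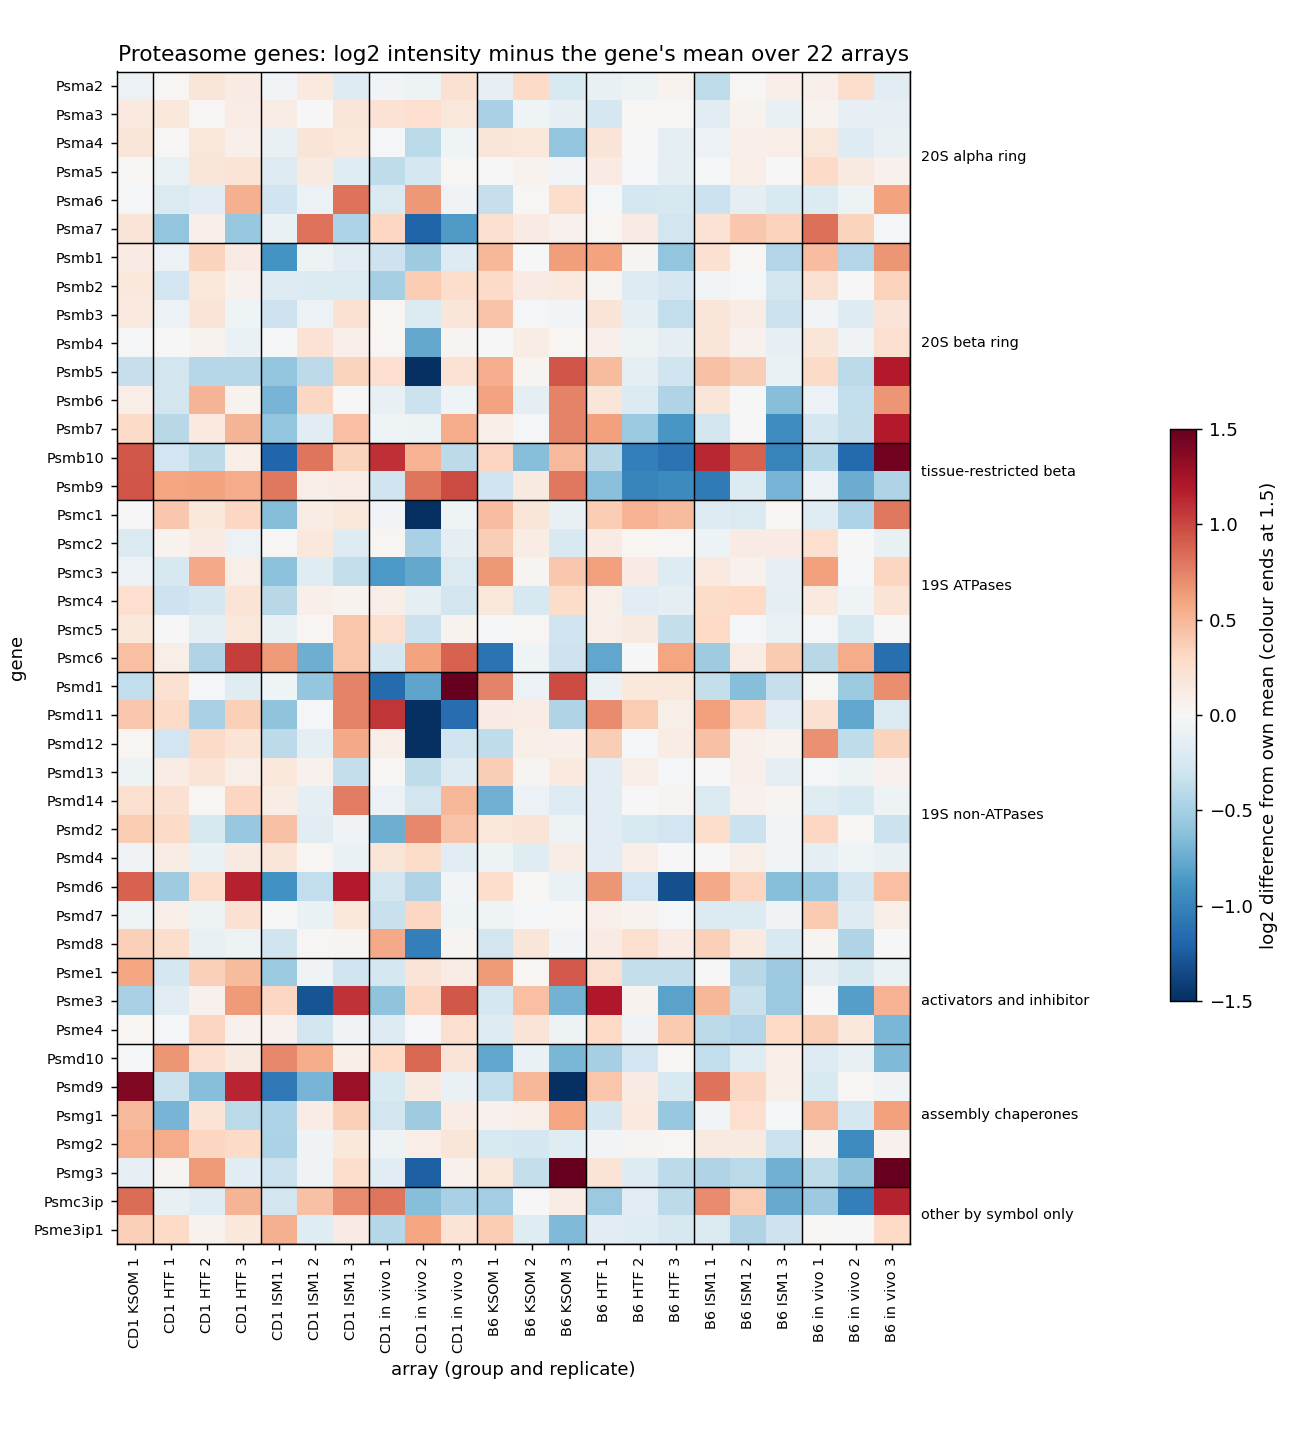
Log2 intensity of each of 41 members (rows, by subcomplex) on each of 22 arrays (columns, by group and replicate) minus the gene's own mean over all arrays, red above and blue below, with the colour ending at 1.5. Psmb9 and Psmd10 are on average redder in CD1 than in B6, and single arrays such as CD1 in vivo 2 and B6 in vivo 3 stand apart over several genes.

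The CD1 KSOM group held 1 array, so its values have no replicate check and no test. Of the members, 32 of 41 were above the CD1 in vivo mean on it, with a median difference of 0.23, against 4845 of 9345 genes and 0.03 over all genes. The largest differences were 1.46 for Psmd9, 1.14 for the cap subunit Psmd6 and 0.96 for Psmd11, and the lowest was -0.70 for Psme3. Psmd9 was at 9.02 on the CD1 KSOM array against 7.40, 7.76 and 7.53 on the CD1 in vivo arrays. Psmd6 was at 10.49 against 9.34, 9.15 and 9.57. Psmd11 was at 10.14, inside the CD1 in vivo range of 8.15 to 10.81. On this array 15 members lay outside the range of the 3 in vivo arrays, as did 3446 of all genes tested.

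Second probes limit single genes. Over the members, 14 genes had 16 further kept probes, and their difference had the sign of the brightest probe's for 10 of 16 in HTF against in vivo growth and for 10 of 16 in CD1 against B6. Precision is set by the few arrays in a group, with a median SE of 0.30 over all genes for HTF against in vivo growth in both strains.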

How the data were processed

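The authors deposited a table of linear bead intensities, not normalized between arrays, with a detection p-value for each probe and array, and a table of log2 values. The authors' log2 table had been quantile-normalized, since its sorted columns were equal to within 0.000774. The submitters' processing notes name BeadStudio 3.2, RMA and lumi. Per the labels' protocols, 150 ng of RNA was amplified with a 12 h in vitro transcription.

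Background correction, quantile normalization and the log2 step used neqc (limma 3.58.1, R 4.3.3; offset 16), which took the detection p-values in place of control probes. A probe was kept if 3 or more arrays had a detection p under 0.05 (12992 of 25697 probes), and the brightest kept probe stood for its gene. The platform annotation named a single gene for 23978 probes, several genes for 0 and no gene for 1719. With limma (lmFit, eBayes), the means of 8 groups were fitted to the 22 arrays together (14 residual degrees of freedom) and 12 contrasts tested, two-sided, with Benjamini-Hochberg adjustment over 9345 genes. A gene was called at adjusted p under 0.05. The procedure was tested on simulated data for HTF against in vivo growth in both strains. Of 100 genes changed by 1 log2 unit 38 were called, and of 100 changed by 2 log2 units 88 were. Among unchanged genes 7 were called.

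The members, gene lists and tests were chosen with earlier results of these data known. Named with values were called members, the 5 largest differences in HTF, ISM1 and strain contrasts and the 3 largest in B6 KSOM, a fixed list (Psmb5 to Psmb7, Psmb9, Psmb10, Psme1, Psme3, Psme4, Psmd4 and Psmd14), and members of opposite sign within a subcomplex in HTF. Other named members (non-overlapping groups, single arrays, the CD1 KSOM array) were chosen after their values were seen. Alternatives covered the replicate block, the authors' log2 values, background, scaling, filters, probe rule, array weights, array brightness and leaving out each array.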

Additional observations from a re-analysis of the deposited data

How the results depend on the processing

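Calls were few and depended on the fit, while the members' medians mostly kept their value. Leaving out single arrays gave 0 to 1 called members in CD1 against B6 and 0 in the other comparisons. Psmb9 in CD1 against B6 was called in 7 of 28 alternatives, over which its difference ran from 0.64 to 1.25 and its adjusted p from 0.00581 to 0.15 by limma. In that comparison 0 members were called with the replicate block, with the authors' log2 values, with no filter on detection, with the mean of kept probes and with array brightness as a covariate. With the replicate block 3 genes were called in all. Of 63 same-numbered pairs of arrays, 23 had a correlation of deviations over 0.1, with a range of -0.72 to 0.52. Differently numbered pairs were not set beside them, so these values do not settle whether the replicate numbers pair the arrays. Median scaling gave 5 called members (Psma7, Psmb5, Psmc3, Psmd12 and Psmg1, all lower in CD1) and not Psmb9, whose difference was 0.64. With it the median of all genes was -0.28 in this comparison, and -0.28 to 0.48 over all comparisons, and the members' median here was -0.25 (0.03 relative to all genes). Under median scaling the members' median was 0.60 in CD1 HTF (0.15 relative), 0.24 in CD1 ISM1 (0.03 relative), 0.22 in HTF over both strains (0.02 relative) and 0.63 in the HTF interaction (0.14 relative). Array quality weights gave 3 called members in B6 HTF (Psma7, Psmb9 and Psmc1), 4 in B6 ISM1 (Psmb10, Psmc3ip, Psmd7 and Psme4) and 2 in CD1 against B6 (Psmb9 and Psmd10). Psmd9 in B6 KSOM ran from -1.23 to 0.15 when single arrays were left out. Over all genes, array quality weights called 423 in B6 KSOM, 1159 in B6 HTF, 1329 in B6 ISM1, 165 in HTF over both strains, 221 in B6 HTF against KSOM, 315 in ISM1 against HTF and 137 in CD1 against B6, in place of 0, 1, 0, 19, 1, 9 and 22. Median scaling called 571 in CD1 against B6, and the other settings there 3 to 69. Leaving out single arrays gave 5 to 56 genes in HTF over both strains, 0 to 129 in B6 HTF against KSOM, 0 to 35 in B6 KSOM and 0 to 29 in CD1 HTF. The cause of these changes was not tested. A fit with the slide as a block was not run, since the headers name no slide. Signal over background limits Psma6 and Psmd2.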
